A study of Mus musculus and Rattus norvegicus with 2 samples.

Results

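Fragments of small nucleolar RNAs (snoRNAs) and of small Cajal body RNAs (scaRNAs) were taken from lists of distinct small RNA sequences, with a read count for each, from cauda epididymal sperm of mouse and rat. A sequence was included where the deposited annotation named a snoRNA or scaRNA family of Rfam, a database of RNA families, or a GenBank snoRNA entry. In the mouse list 1244 of 89179 sequences were included, of which 1197 carried a count, together 5137 of 691381 reads. In the rat list 555 of 137388 sequences were included, together 4117 of 2102735 reads.

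The mouse library came from purified cauda epididymal sperm of the C57BL/6 strain at 2 months of age. The rat library came from purified cauda epididymal sperm of Sprague Dawley young adults of 450 g. Both were made from total RNA extracted with Trizol, of which the fraction of 18 to 45 nt was sequenced on an Illumina GAIIx. The sources used here do not give the number of animals behind each library. There was 1 library per species, so no difference below has a replicate check, and species, strain, age, library and sequencing run cannot be told apart. Intervals are exact 95% intervals of counting error only. PCR copies were not marked and are not independent molecules, so the intervals are too narrow.

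C/D box snoRNAs carry the short boxes C and D at their ends, often with internal copies called C′ and D′, and guide the addition of methyl groups to the ribose of ribosomal and other RNAs. H/ACA snoRNAs fold into hairpins, end in an ACA motif and guide the conversion of uridine to pseudouridine. Most are cut out of the introns of host genes. scaRNAs belong to either kind or carry both, and act on spliceosomal RNAs in Cajal bodies. A few snoRNAs, such as U3, take part in cleavage of the ribosomal RNA precursor.

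The sequences below show the ends that recurred. Capitals mark TGATGA, the core of the C box, and CTGA, the D or D′ box, which overlap in SNORD31. All are written as DNA from 5′ to 3′. Mouse positions are on GRCm38 with GENCODE M21 genes, from an exact match. Rat positions are not given.
SNORD52, mouse, 631 reads, chr17:34950982-34951017, minus strand: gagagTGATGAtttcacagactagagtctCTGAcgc
SNORD31, mouse, 210 reads, chr19:8725596-8725629, plus strand: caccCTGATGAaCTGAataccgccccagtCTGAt
SNORD60, mouse, 95 reads, chr17:24528476-24528516, plus strand: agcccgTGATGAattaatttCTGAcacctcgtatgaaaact
SNORD97, mouse, 159 reads, chr7:111076191-111076226, minus strand: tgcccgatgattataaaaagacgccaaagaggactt
SNORD97, rat, 81 reads: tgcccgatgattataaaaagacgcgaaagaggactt
SNORD57, rat, 200 reads: ggagaTGATGAaCTGActcaacCTGAcct
SNORD15, rat, 71 reads: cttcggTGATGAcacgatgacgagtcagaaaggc
SNORD88, rat: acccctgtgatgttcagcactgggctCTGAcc
SNORD96, rat, 70 reads: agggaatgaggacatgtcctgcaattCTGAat
U3, rat, 157 reads: agggagagaacgcagtCTGAgtgg
SNORA44, mouse, 18 reads, chr4:132309941-132309982, plus strand: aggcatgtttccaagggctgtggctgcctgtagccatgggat
SNORA3, rat, 85 reads: atcgagactagagtcacatcCTGAcatggc
SCARNA16, rat, 182 reads: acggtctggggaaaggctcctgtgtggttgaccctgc
These are, for the names shown, the most abundant sequence of that name in its library. The SNORD52, SNORD31, SNORD60, SNORD57 and SNORD15 sequences begin 5 or 6 bases before TGATGA. SNORD97 has only GATGA there, and the SNORD88, SNORD96 and U3 sequences hold a CTGA near their 3′ end and no TGATGA. In SNORA3, an H/ACA snoRNA, the capitals are a match by letters alone.

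The sperm lists held microRNA markers of sperm and of other cells. The 4 sperm markers summed to 365 reads in mouse and 6743 reads in rat, with miR-34c-5p at 255 and 5785 reads. Markers of stroma and smooth muscle summed to 2405 reads in mouse and 813 reads in rat, epithelial markers to 221 and 122 reads, and blood markers to 41 reads in mouse and 1 read in rat. In rat 3 of the 11 markers had no read under the mouse name, miR-145a-5p, miR-451a and miR-486-5p. Relative to depth, the sums for the other cell types were higher in the mouse list, as were the snoRNA fragments. The epithelial sum rests on miR-141-3p, with 218 reads in mouse and 104 in rat, while miR-200a-3p had 3 in mouse and 18 in rat. The mouse blood sum rests on miR-486-5p with 32 reads and miR-451a with 8, neither with a rat read under that name. miR-142-5p had 1 read in each list. The part of other cell types in the results was not tested. All listed mouse reads of 46 nt or more made up 1.05% of the library, against 0.12% in rat, so the lists reach beyond the nominal size limit, up to 71 nt.

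snoRNA and scaRNA fragments made up a small share of both lists and a larger one in mouse. Their share was 0.743% of listed reads in mouse (0.723 to 0.764) and 0.196% in rat (0.190 to 0.202). That is a ratio of 3.79 (3.64 to 3.95). The mouse share includes 613 reads under 28 GenBank entries, some of them C/D, while all rat reads stood under Rfam names. A ratio without the GenBank entries was not calculated. In mouse 90.5% of these reads were C/D, 4.36% H/ACA and 1.44% scaRNA, and 3.72% came under names whose family could not be assigned. In rat 75.4% were C/D, 7.75% H/ACA and 16.9% scaRNA.

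Relative to all listed reads, C/D reads were 4.55 times higher in mouse than in rat (4.35 to 4.77) and H/ACA reads 2.14 times higher (1.79 to 2.54). scaRNA reads went the other way, at 0.324 of the rat share (0.252 to 0.413), but SCARNA16 held 618 of the 694 rat reads. Without it scaRNAs had 74 reads in mouse and 76 in rat, a ratio of 2.96 (2.12 to 4.13). Among C/D and H/ACA reads alone, 95.4% were C/D in mouse (94.8 to 96) and 90.7% in rat (89.7 to 91.6). Among sequences of 18 to 30 nt the log2 ratio of the total share, mouse over rat, was 0.22 (0.09 to 0.34), against 1.92 over all lengths, and the C/D share of C/D and H/ACA was 77.5% in mouse and 87.6% in rat.

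The most abundant rat name rested on a sequence that also lies in ribosomal RNA. Of 883 reads under SNORND104 in rat, 876 were a single sequence of 18 nt on the strand opposite to the Rfam entry, with 2 mismatches.
SNORND104, rat, 876 reads: ggagtctaacgcgtgcgc
The same 18 bases stood inside 220 sequences annotated as ribosomal RNA in mouse, with 1655 reads, and inside 429 in rat, with 40184 reads. The mouse list held the 18-base sequence itself with 25 reads, under another annotation, and no read under the name SNORND104. Without members that share 18 bases with tRNA or rRNA sequences, the share was 0.740% in mouse and 0.154% in rat, a ratio of 4.82 (4.61 to 5.04). The SNORND104 reads are left out of the rat values below where stated.

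**Figure D1:**
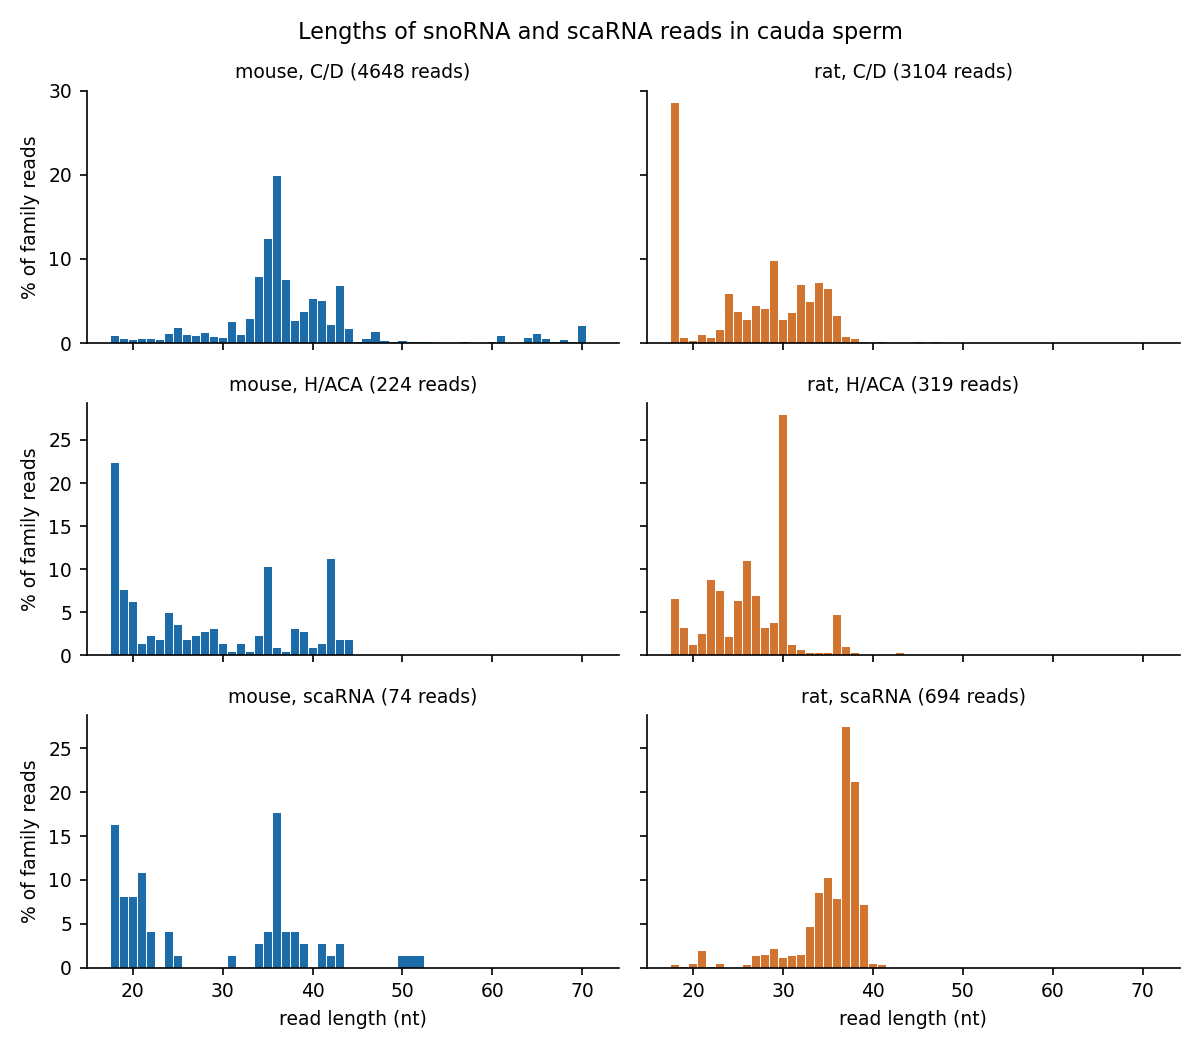
Length distribution of C/D, H/ACA and scaRNA reads (rows) in mouse (left) and rat (right), as percent of the reads of that family in that library. Mouse C/D reads peak at 36 nt and run on to about 70 nt; 876 of the 887 rat C/D reads at 18 nt are the single SNORND104 sequence.

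Mouse C/D fragments were longer than rat ones. Their median length was 36 nt in mouse, with quartiles of 35 and 40 nt, and 30 nt in rat once members shared with tRNA or rRNA were left out, with quartiles of 27 and 34 nt. In mouse 77.5% of these C/D reads measured 33 to 45 nt and 9.56% measured 25 to 32 nt. In rat 32.8% measured 33 to 45 nt and 52.8% measured 25 to 32 nt. The modal length was 36 nt in mouse and 29 nt in rat.

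Most C/D names with at least 5 reads in each library had the longer median in mouse, by amounts that varied. SNORD82 had medians of 64 nt in mouse and 24.5 nt in rat, SNORD24 of 37 and 21 nt, and U3 of 29 and 25 nt. The exceptions were SNORD57, given below, and SNORD14, with 22 nt in mouse and 23 nt in rat. SNORD88 reads had a median of 36 nt in mouse and 32 nt in rat, and SNORD15 reads one of 40 nt in mouse, over 8 reads, and 34 nt in rat. A further 46 mouse SNORD15 reads, found by sequence under other annotations, are not in that median. SNORD97 and SNORD57 differed by 1 nt, with medians of 36 nt in mouse and 35 nt in rat for SNORD97, and of 28 nt in mouse and 29 nt in rat for SNORD57. Whether the size selection differed between the libraries was not tested.

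Long snoRNA reads were nearly all from mouse. Reads of 46 nt or more numbered 500 in mouse, 9.73% of its snoRNA and scaRNA reads, and 9 in rat, 0.219%. Of all listed mouse reads of 55 nt or more, 358 of 930 were snoRNA or scaRNA reads (38.5%, 35.4 to 41.7). In rat 3 of 671 were (0.447%, 0.0923 to 1.30). None of the 224 H/ACA reads in mouse and 319 in rat passed 45 nt, with exact intervals reaching up to 1.63% in mouse and 1.15% in rat.

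Many of the long mouse reads covered a whole C/D snoRNA. Of the 4300 C/D reads that matched a mouse gene exactly, 227 spanned it to within 5 nt at both ends (5.28%, 4.63 to 5.99), with a median length of 66 nt. Whole reads fell on 26 of the 128 genes that had reads matching 1 gene only. Abundant whole reads came from the neighbouring copies Snord50a and Snord50b, guides for 28S rRNA. Gm25789, a gene in the host Gas5 that was given no family here and is not in the 227, also had 38 whole reads.
Snord50a, 42 reads, 70 nt, chr9:88521530-88521599, minus strand: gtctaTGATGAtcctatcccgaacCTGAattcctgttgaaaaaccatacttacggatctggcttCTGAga
Snord50b, 40 reads, 70 nt, chr9:88521798-88521867, minus strand: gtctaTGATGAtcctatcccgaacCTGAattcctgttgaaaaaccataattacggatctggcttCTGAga
Gm25789, 38 reads, 67 nt, chr1:161038312-161038378, plus strand: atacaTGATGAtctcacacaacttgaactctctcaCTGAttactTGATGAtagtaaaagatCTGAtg
Each of these runs from 5 bases before the first C box to 2 bases after the last CTGA. Since no listed read exceeded 71 nt and the mouse H/ACA genes with reads measured 126 to 205 nt, a whole H/ACA snoRNA could not be seen.

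C/D fragments with the C box core near their start began at a nearly fixed distance from it. TGATGA lay in the first 15 nt of 73.3% of C/D reads in mouse and 26.2% in rat, and of 74.4% in mouse and 49.8% in rat with U3 and SNORND104 left out. Among all other listed reads it did so in 0.294% in mouse and 0.0105% in rat. With the shorter GATGA, which also takes in the box of SNORD97, the shares without U3 and SNORND104 were 87.7% in mouse and 76.1% in rat. TGATGA and GATGA were searched on the read strand alone, and every TGATGA holds a GATGA.

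Where TGATGA was found, 5 bases stood before it in 73.2% of the reads in mouse and 66.6% in rat, and 6 bases in 26% of the reads in mouse and 31.9% in rat. Other distances were rare, since 4 to 6 bases took in 99.4% of these reads in mouse and 98.8% in rat. By name, the most abundant sequence began 5 or 6 nt before TGATGA for 26 of 40 C/D names with at least 10 reads in mouse and for 5 of 13 in rat, SNORND104 left out.

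The 3′ ends were spread more widely than the starts in mouse, and not in rat. CTGA lay in the last 8 nt of 51.6% of C/D reads in mouse and 36.2% in rat, and of 52.2% in mouse and 53.1% in rat with U3 and SNORND104 left out, against 0.732% in mouse and 4.07% in rat of all other listed reads. By name, the most abundant sequence held it there for 19 of 40 names in mouse and 10 of 13 in rat. Among reads that held TGATGA and a later CTGA, 69.9% in mouse and 96.3% in rat ended 0 to 4 bases after the last CTGA. In rat 62.8% ended exactly 3 bases after it, as the SNORD57 sequence above does. That sequence gave 200 of the 324 rat reads ending at 3 bases, and the next SNORD57 sequence 103 of the 156 at 2 bases. In mouse the leading SNORD52 sequences gave 631 of 722 reads at 3 bases, 249 of 347 at 4 and 241 of 546 at 2. Over the 20 C/D names with at least 50 reads in mouse, a median of 77.4% of reads shared the first 12 bases of the name's most abundant sequence, and a median of 51.0% shared its last 12 bases. Over the 7 such names in rat, SNORND104 left out, the medians were 60.3% for the start and 58.7% for the end. More reads shared the start than the end for 14 of the 20 names in mouse and 3 of the 7 in rat.

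**Figure D2:**
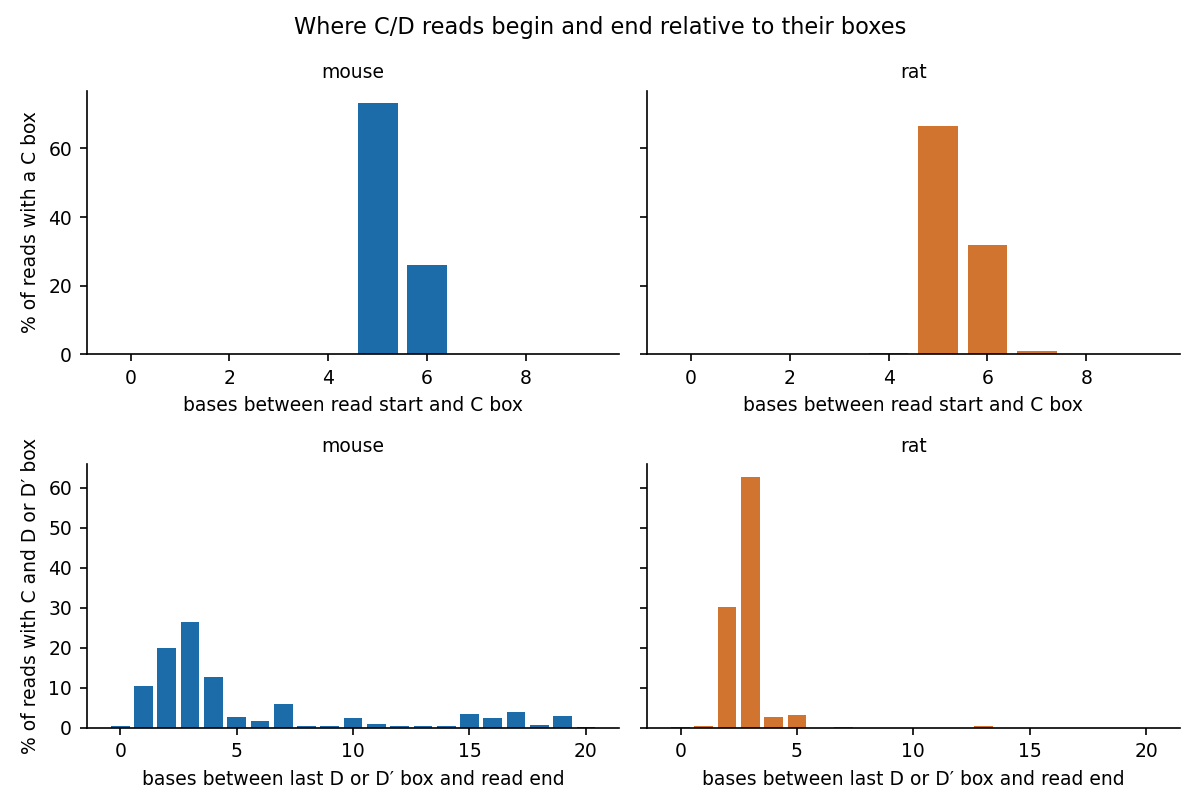
Bases between the read start and the C box core TGATGA (top) and between the last CTGA and the read end (bottom, shown to 20 bases) in mouse (left) and rat (right), as percent of C/D reads that hold the box or boxes. Starts stand at 5 or 6 bases in both libraries. Ends cluster at 1 to 4 bases in mouse, with a tail, and at 2 or 3 bases in rat. SNORD52 gives most of the mouse reads at 3 and 4 bases, and SNORD57 most of the rat reads at 2 and 3 bases.

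Placed on the mouse genes, C/D fragments other than those of U3 came mostly from the 5′ end. Of 5137 mouse reads 4635 matched a snoRNA or scaRNA gene exactly (90.2%). Of the C/D ones, 79.9% began within 5 nt of the annotated start and stopped short of the end (78.7 to 81.1), 8.0% ended within 5 nt of the annotated end and began past the start (7.21 to 8.85), and 6.74% touched neither end. With the whole reads added, 85.2% began at the start (84.1 to 86.2) and 13.3% ended at the end (12.3 to 14.3). Among rat C/D reads other than U3, 991 came within 2 substitutions of a mouse gene over at least 24 nt. Of these, 885 lay at the 5′ end (89.3%, 87.2 to 91.2) and 96 at the 3′ end (9.69%). This rat share rests mainly on SNORD97 with 431 such reads, SNORD15 with 229 and SNORD88 with 198. Of the 390 rat SNORD57 reads only 1 came that close to a mouse gene, so they are hardly covered. Of the rat U3 reads near a mouse gene, 485 of 524 lay at the 3′ end (92.6%), and with them the rat C/D shares were 58.4% at the 5′ end (55.9 to 60.9) and 38.3% at the 3′ end (35.9 to 40.9).

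H/ACA reads were less one-sided. Of 139 mouse H/ACA reads with an exact gene match, 42.4% lay at the 5′ end (34.1 to 51.1), 25.9% at the 3′ end (18.8 to 34) and 31.7% inside. The ACA motif stood 3 nt before the read end in 16.5% of H/ACA reads in mouse and 8.78% in rat, against 0.222% and 0.119% of all other listed reads.

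Which end a C/D snoRNA left in the mouse list differed between genes. Of 43 genes with at least 10 exact reads, 26 had most of them at the 5′ end, 9 at the 3′ end, 5 inside and 2 over the whole gene. Snord52 had 1125 of 1135 reads at its 5′ end, and Snord60 had all 214 there. Snord110 had 37 of 46 at its 3′ end, Gm25296 all 35, Gm23969 22 of 26 and Snord66 19 of 23. Snord110 and Snord57 lie in the same host gene, Nop56, and Snord57 had 39 of 44 reads at its 5′ end. Snord71 counted as inside for 120 of 132 reads, since its main fragment began at base 7 of the annotated gene, just past the 5 nt allowed.

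**Figure D3:**
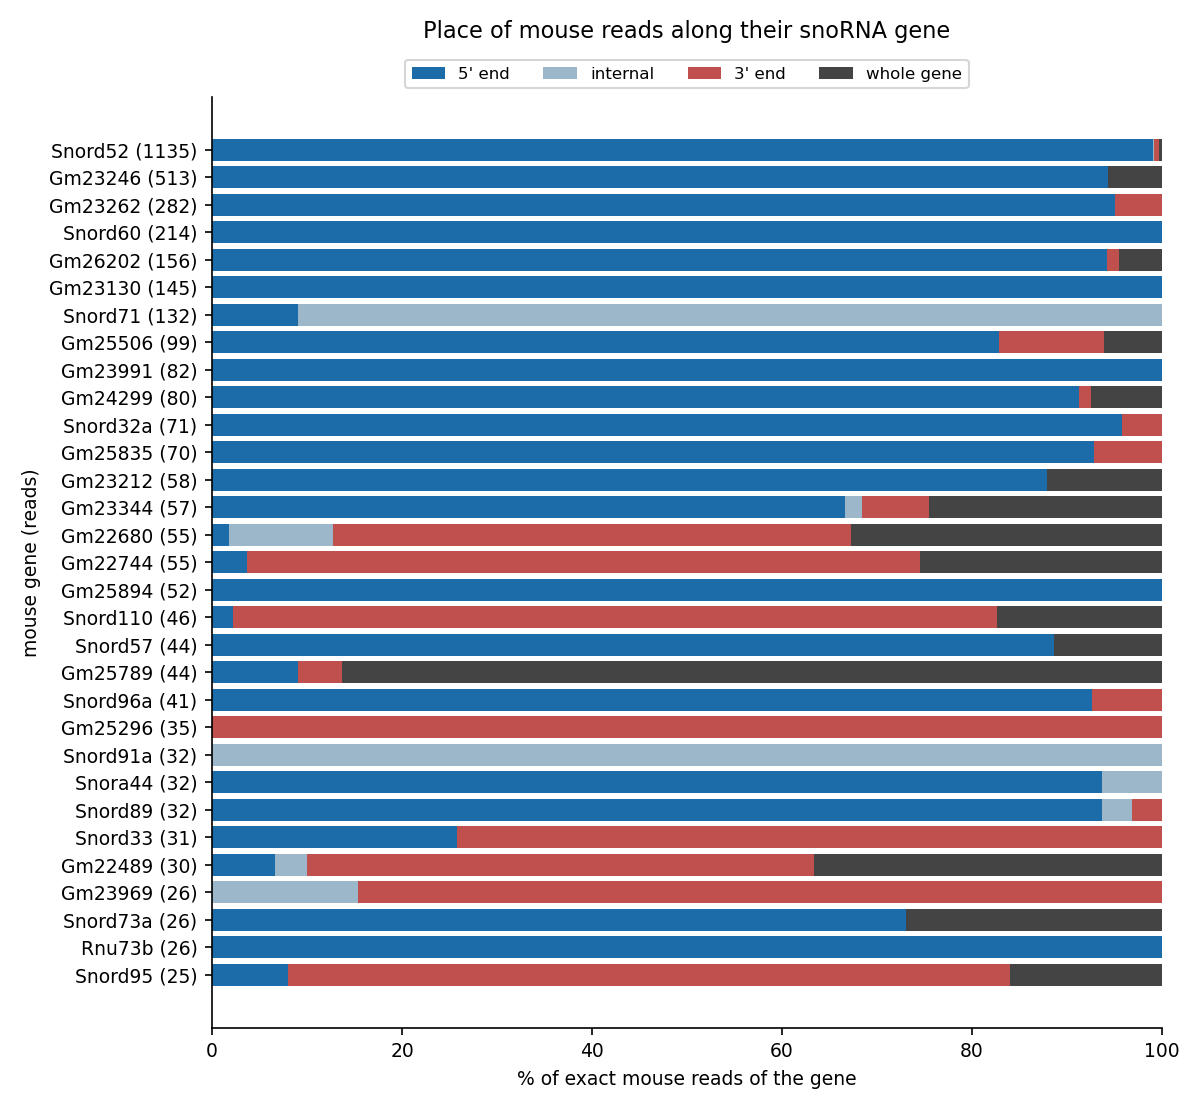
Share of each mouse gene's exact reads that lie at its 5′ end, inside, at its 3′ end or over the whole gene (to within 5 nt), for genes with at least 25 reads, ordered by reads (in brackets). Most genes are nearly all 5′ end; Snord110, Gm25296, Gm23969, Snord95, Snord33, Gm22489, Gm22680 and Gm22744 are mostly 3′ end, Snord71 and Snord91a mostly inside and Gm25789 mostly whole.

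Reads were concentrated in few RNAs. The most abundant name held 24.1% of snoRNA and scaRNA reads in mouse and 21.4% in rat, and the 10 most abundant held 64.3% in mouse and 89.4% in rat. At the same time 830 of 1197 counted mouse sequences and 394 of 555 rat sequences had a single read. The leading names differed between the species, with SNORD97 and SNORD88 among the 10 most abundant of both.

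SNORD52, a guide for 28S rRNA, was the most abundant name in mouse, with 1240 reads, or 1794 reads per 1000000 listed reads (RPM). By that name it had 0 reads in rat. A count of 0 allows up to 1.43 RPM there, taken as 3 counts, and the mouse share was 1257-fold that limit. By sequence, 2 rat reads under another annotation came within 2 substitutions of mouse Snord52, against 1238 mouse reads. That is a log2 ratio of 10.88 (9.02 to 13.9). Its 68 mouse sequences shared their start in 97.3% of the reads and their end in 53.4%. The 3 most abundant, of 36, 37 and 35 nt, had 631, 249 and 241 reads and differ only at the 3′ end.

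SNORD31, also a guide for 28S rRNA, had 543 reads in mouse and 0 in rat (at least 550-fold higher). SNORD60 had 226 reads in mouse and 0 in rat, SNORD58 203 and 0, SNORD101 151 and 0, SNORD71, a guide for 5.8S rRNA, 137 and 0, and SNORD41, a guide for 28S rRNA, 163 RPM in mouse and 0 reads in rat. All of these were in mouse only by their deposited names.

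**Figure D4:**
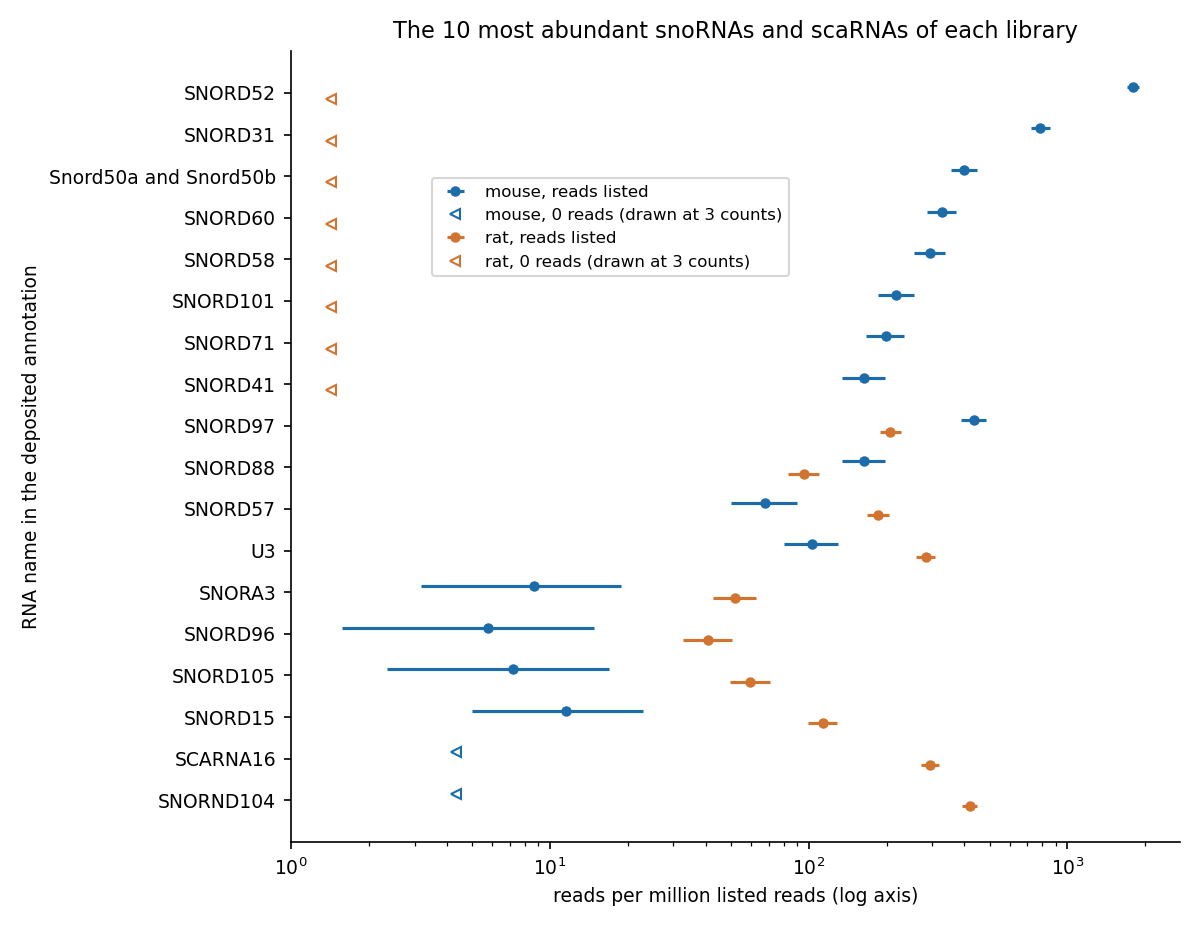
RPM (log axis) of the 10 most abundant names of each library, 18 names in all, by deposited name; circles are mouse (blue) and rat (orange) with exact 95% Poisson intervals, and open triangles mark 0 reads, drawn at 3 counts. SNORD97 and SNORD88 were listed in both and higher in mouse; U3, SNORD57, SNORA3, SNORD96, SNORD105 and SNORD15 were listed in both and higher in rat by name.

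Rat was led, after SNORND104, by SCARNA16, a scaRNA of the H/ACA kind, with 0 reads in mouse and 618 in rat. Its rat level of 294 RPM compares with the 4.34 RPM that a count of 0 allows in mouse (at least 67.7-fold lower in mouse). In rat 97.6% of the SCARNA16 reads shared their start, and its median length was 37 nt. SNORD94 had 0 reads in mouse and 27 in rat, and SNORD53_SNORD92 0 and 11. SNORD50 had 0 reads in mouse and 20 in rat, but the 276 mouse reads of Snord50a and Snord50b stood under GenBank entries, with 1 such 19-nt sequence listed 15 times in mouse and 11 times in rat.

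SNORD97, which in human cells guides methylation of the anticodon of elongator tRNA-Met, had 300 reads in mouse and 435 in rat. That is 434 RPM in mouse and 207 RPM in rat, a log2 ratio of 1.07 (0.85 to 1.28), which turned to -0.86 relative to snoRNA and scaRNA reads alone. Its leading 36-nt sequences differed by C25G, with the mouse base first and positions counted from the read's 5′ end. Over 13 bases around it, the mouse form was found in 275 reads in mouse and 2 in rat, and the rat form in 1 read in mouse and 420 in rat. SNORD88, a guide for 28S rRNA, had 163 RPM in mouse and 95.6 RPM in rat, a log2 ratio of 0.77 (0.43 to 1.11) that turned to -1.15 relative to snoRNA and scaRNA reads alone. On the plus strand with 0 mismatches SNORD88 had 103 reads in mouse and 11 of its 201 reads in rat.

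U3 had 71 reads in mouse and 595 in rat, a log2 ratio of -1.46 (-1.84 to -1.11). Counted instead by sequence, as all listed reads of at least 24 nt within 2 substitutions of a mouse U3 gene, U3 had 183 reads in mouse and 640 in rat, a log2 ratio of -0.20 (-0.45 to 0.04). Of these, 125 in mouse were under other annotations, and in rat the name ACEA_U3 held 122 reads. The last 14 bases of the rat sequence printed above were held by 26 of 71 U3 reads in mouse (36.6%, 25.5 to 48.9) and 507 of 595 in rat (85.2%, 82.1 to 88.0). Under any annotation they were held by 29 reads in mouse, 41.9 RPM, and by 626 in rat, 298 RPM. A 12-base probe from the gene's 5′ end was held by 0 mouse and 2 rat reads. Of the U3 reads with an exact match to a mouse gene, 36 lay at the 3′ end and 34 inside in mouse, and 325 lay at the 3′ end, 29 inside and 2 at the 5′ end in rat.

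The remaining names that led in rat depended on how they were counted. SNORD15, a guide for 28S rRNA, had 8 reads in mouse and 239 in rat by name (log2 ratio -3.30, -4.52 to -2.29), and 54 in mouse and 229 in rat by sequence (-0.48, -0.94 to -0.05), since 46 mouse reads stood under other annotations. SNORD96, a guide for 5.8S rRNA, had 4 reads in mouse and 86 in rat by name (-2.82, -4.73 to -1.41). By sequence it had 41 in mouse and 80 in rat (0.64, 0.06 to 1.20), as 37 mouse reads stood under a GenBank entry. SNORD96 also differed in the part seen, with 38 of 41 exact Snord96a reads in mouse at the 5′ end, while the rat sequence printed above, with 70 of 86 reads, lies near the 3′ end of that gene.

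SNORD57, a guide for 18S rRNA, had 47 reads in mouse and 390 in rat (-1.45, -1.92 to -1.01), and SNORD105, also a guide for 18S rRNA, 5 and 125 (-3.04, -4.69 to -1.78). Counting by sequence could not be used for these: of 390 rat SNORD57 reads only 1 came within 2 substitutions of a mouse gene. The same limit holds for the names absent in rat, where reads near mouse Snord52 numbered 1238 in mouse and 2 in rat, and reads near Snord60, Snord71 and the SNORD31 and SNORD101 genes numbered 0 in rat. Rat copies that differ more from mouse would not be counted.

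Among names with lower counts, the ratio was toward mouse for SNORD82 with 24 reads in mouse and 8 in rat (3.19, 1.99 to 4.55), SNORD12 with 14 and 5 (3.09, 1.54 to 4.92) and SNORD100 with 19 and 12 (2.27, 1.15 to 3.44). SCARNA2, a guide for U2 snRNA, had 30 reads in mouse and 12 in rat, of which 12 and 11 were plus-strand matches with 0 mismatches (1.73, 0.42 to 3.05).

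H/ACA and scaRNA names in mouse rested more often on imperfect matches than in rat, and C/D names less often. Reads listed with 0 mismatches made up 50.9% of H/ACA reads in mouse and 79.3% in rat, 47.3% of scaRNA reads in mouse and 95.2% in rat, and 89.5% of C/D reads in mouse and 59.1% in rat. The rat C/D value includes SNORND104. Of the 3104 rat C/D reads 917 had 2 mismatches, and 876 of those were the SNORND104 sequence that also lies in rRNA. SNORA38 had 37 reads in mouse and 3 in rat, and SNORA17 24 and 15, but on the plus strand with 0 mismatches SNORA38 had 0 in mouse and 2 in rat, and SNORA17 0 and 1. SNORA44 did not depend on this, with 32 of 34 such reads in mouse and 38 of 47 in rat (1.36, 0.63 to 2.07). SNORA67 had 16 in mouse and 0 in rat. SNORA3 had 8.68 RPM in mouse and 51.8 RPM in rat (-2.58, -4.06 to -1.41). On the plus strand with 0 mismatches SNORA3 had 2.89 RPM in mouse and 50.9 RPM in rat (-4.14, -7.20 to -2.25), and by the first 18 bases under any annotation 19 in mouse and 138 in rat. Counting it by closeness to the mouse gene could not be used, since 1 rat read came that close. SNORA61 had 2 reads in mouse and 56 in rat (-3.20, -6.28 to -1.28). Among H/ACA reads with 0 mismatches the median length was 35 nt in mouse and 28 nt in rat.

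Over all names with at least 10 reads in either list, 38 of 59 snoRNA and scaRNA names were past 4-fold higher in mouse (64.4%), against 44.5% of all 182 Rfam and miRNA names, and 26 of the 38 had no rat read. Past 4-fold higher in rat were 11 of 59 (18.6%), against 19.2% of all names, and 6 of the 11 had no mouse read. With reads in both lists, 12 of 27 were past 4-fold higher in mouse, against 30.2% of all such names, and 5 of 27 higher in rat, against 12.9%. Ratios are of RPM plus 1, and their median on the log2 scale was 3.82 over the 59 names and 1.21 over all 182. With zeros set to 3 counts the median of the 59 was 3.13, the number past 4-fold higher in mouse stayed at 38, and that higher in rat was 7. The share past 4-fold higher in rat is close to that over all names, and it counts SNORND104, whose main sequence lies in rRNA, and SNORD15, SNORD96 and SNORD50, whose mouse reads stood mostly under other annotations. Relative to snoRNA and scaRNA reads alone, any log2 ratio under 1.92 turns toward rat, which takes in SNORA44 and the SCARNA2 value from reads with 0 mismatches.

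Host genes are known for most of the mouse RNAs. Of 128 genes with reads matching 1 gene only, 121 lay within another annotated gene on the same strand, with 99.3% of 4256 such reads. A protein-coding host held 93 of the genes, with 44.7% of the reads. Only 59 genes, with 20.6% of the reads, lay in a host without overlapping one of its annotated exons. Snord52 lies in 1110038B12Rik with 1135 reads. The 8 genes in Snhg1, a non-coding host, had 727 reads, of which 513 were of Gm23246, the SNORD31 gene. The 4 genes in Gas5, another non-coding host, had 134 reads, Gm23262 in Eif4g2 had 282 and the 5 genes in Nop56 had 99.

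By name, 6 of 8 snoRNAs of the Snhg1 host were seen in mouse and 2 in rat, with 657 and 5 reads. Beside SNORD31 these were SNORD26 with 57 in mouse and 0 in rat, SNORD22 with 23 and 3, SNORD25 with 17 and 0, SNORD27 with 16 and 2 and SNORD28 with 1 and 0. Within this host, reads of SNORD26 (Gm25894) lay at the 5′ end in all 52 exact matches, while those of Gm22680 and Gm22744 lay at the 3′ end in 30 of 55 and 39 of 55.

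Of 10 names of the Gas5 host 4 were seen in mouse and 1 in rat, with 100 and 2 reads. SNORD47, another of the 10, had no read by name in either list. By sequence, 95 rat reads came within 2 substitutions of mouse Snord47, under another annotation, against 0 in mouse. SNORD44, a common reference RNA in small RNA assays, had 59 reads in mouse and 0 in rat, SNORD75 35 and 0, SNORD77 4 and 2, and SNORD81 2 and 0. The gene that the SNORD81 reads matched is Gm25789, which had 58 mouse reads by sequence, 43 of them under other snoRNA names and 13 under other annotations, and 0 in rat. The gene that the SNORD77 reads matched is annotated as Snord80, the name of another of the 10. By sequence it had 12 reads in mouse, 8 of them under other snoRNA names, and 2 in rat. Of 4 names of the Rpl13a host 3 were seen in mouse and 0 in rat. Their summed reads were 120 in mouse and 0 in rat, of which SNORD35 had 6 in mouse, SNORD34 5 and SNORD33, a guide for 18S rRNA, the rest, but 71 of the exact matches under SNORD33 were to the neighbouring Snord32a and 31 to Snord33. Snord32a reads lay at the 5′ end in 68 of 71, and Snord33 reads at the 3′ end in 23 of 31.

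Of 7 names active in precursor rRNA processing 4 were seen in each library by Rfam name, together 155 RPM in mouse and 291 RPM in rat. Of these sums U3 held 103 RPM in mouse and 283 RPM in rat, while by sequence U3 had 265 RPM in mouse and 304 RPM in rat. Beside SNORD22, SNORA73 had 8 in mouse and 1 in rat, and SNORD14 had 5 in mouse and 13 in rat, a log2 ratio of 0.23 (-1.61 to 1.81) that turned negative relative to snoRNA and scaRNA reads alone. By sequence SNORD14 had 31 in mouse and 5 in rat. Outside these sums, Snord118 and Snord13 had 3 mouse reads each under GenBank entries, and 4 rat reads came within 2 substitutions of mouse Snord118. Of 8 names from imprinted loci only SNORD113 was seen, with 5 reads in mouse and 4 in rat. Of 10 names used as references in small RNA assays 2 were seen in mouse by Rfam name, SNORD44 and SNORD96, and 1 in rat, SNORD96. Others of the 10 were listed in another way. In mouse Snord95 had 70 reads under GenBank entries, Snord68 had 5 and Snord65 had 2. In rat 95 reads came within 2 substitutions of mouse Snord47 and 29 of mouse Snord95, all under other annotations.

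Few fragments were identical between the species. Sequences found exactly in the other list held 3.50% of snoRNA and scaRNA reads in mouse (3.02 to 4.04) and 26.5% in rat (25.2 to 27.9), or 6.65% in rat without members shared with tRNA or rRNA. For all other listed reads the shares were 75.1% in mouse and 52.5% in rat. The first 18 bases of a read began a sequence of the other list for 9.32% of the snoRNA and scaRNA reads in mouse and 36.7% in rat, or 9.28% in mouse and 19.5% in rat without members shared with tRNA or rRNA. They began a snoRNA or scaRNA sequence of the other list for 7.57% in mouse and 15.1% in rat.

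Only 21 sequences were annotated as snoRNA or scaRNA in both lists. The one with the largest rat count is the SNORD96 sequence printed above, with 1 read in mouse and 70 in rat, and the U3 sequence of 27 nt had 3 in mouse and 43 in rat. A fragment from the 3′ end of SNORD97, of 34 nt, was listed 5 times in mouse and 4 times in rat.
SNORD97, 3′ end, chromosome 7: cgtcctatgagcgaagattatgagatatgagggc
Among 128 snoRNA and scaRNA names of Rfam 42 were seen in both lists. In mouse only were 67 (52.3%), against 42.8% of all Rfam and miRNA names with a read, and in rat only 19 (14.8%), against 20.2%. The 28 GenBank entries of the mouse list, with 613 reads, are outside this count. Names found in the other list held 19.5% of all snoRNA and scaRNA reads in mouse and 61.1% in rat. In mouse that total includes the GenBank reads, which count as not shared because the rat list has no such entry.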

How the data were processed

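Small RNA was sequenced from cauda epididymal sperm of mouse and rat, 1 library each. The deposited lists give each distinct sequence with a read count (whole numbers, not normalized), an annotation, a strand and up to 2 mismatches, per the file headers and the values. Bowtie 0.12.7, mm9 and rn5 are named in the submitters' processing notes. Their roles, the adapter trimming, the filters and the database versions remain not given in the sources used here. In the mouse list 2535 sequences have a blank count and an identifier that reads as a month and a number. They were left out of read counts, 47 snoRNA and scaRNA sequences among them.

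Sequences on the minus strand were reverse-complemented. C/D, H/ACA and scaRNA families were assigned by name, GenBank entries by the gene matched. Depth was 691381 listed reads in mouse and 2102735 in rat, and a count of 0 allows 3 counts, 4.34 RPM (reads per 1000000 listed reads) in mouse and 1.43 RPM in rat. Mouse sequences were matched to 1558 GENCODE M21 snoRNA and scaRNA genes on GRCm38, exactly or with up to 2 substitutions over at least 24 nt. No rat genome was used here. Shares have exact Clopper-Pearson intervals, counts exact Poisson intervals and ratios exact conditional binomial intervals, all at 95%. Ratios counted past 4-fold use RPM plus 1.

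Named RNAs are the 10 most abundant of each library, the 5 largest ratios each way (at least 10 reads in 1 list and 5 in the other), the 5 most abundant seen in 1 list only, and the measured members of 6 lists (snoRNAs of the hosts Gas5, Snhg1 and Rpl13a, imprinted loci, precursor rRNA processing, assay references). Others named were chosen after their values were seen. Counting by sequence under any annotation was chosen after seeing the data. Members and lists were chosen with earlier results of these data known. Interval code was tested on simulated data. Alternatives covered the weight of sequences, mismatches, strand, counts, length, abundant sequences, shared annotation, pseudocount and scaling. Python 3.11.15, numpy 2.4.6, pandas 2.3.3, scipy 1.17.1 and matplotlib 3.10.9 were used.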

Additional observations from a re-analysis of the deposited data

Results flagged for a closer look

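A further 1104 mouse reads matched a snoRNA or scaRNA gene exactly but stood under other annotations, 979 of them as unknown. They entered the values above only where reads were counted by sequence or under any annotation. Most were of Snord55, with 594 reads in 25 counted sequences, 859 reads per 1000000 listed, against 543 reads of SNORD31. Its most abundant sequence, of 20 nt, had 259 reads in mouse and 0 in rat. Snord2 had 85 such mouse reads and Snord123 had 80. In rat 95 reads came within 2 substitutions of mouse Snord47 under another annotation, against 0 in mouse. In mouse 47 snoRNA and scaRNA sequences had a blank count and an identifier that reads as a month and a number. Taking the month, from 7 to 12, as the count would add 413 reads.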

How the results depend on the processing

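The values below follow this order unless named: share of listed reads in mouse and rat; C/D share of C/D and H/ACA in mouse and rat; share of 18 to 24 nt in mouse and rat; share in sequences found exactly in the other library in mouse and rat; log2 ratio of the listed share. As reported they were 0.743% and 0.196%, 95.4% and 90.7%, 6.48% and 32%, 3.50% and 26.5%, and 1.92. With each distinct sequence counted once they were 1.38% and 0.404%, 85.8% and 76.3%, 18.3% and 29.5%, 2.67% and 4.86%, and 1.77. Among 18 to 30 nt they were 0.206% and 0.177%, 77.5% and 87.6%, 49.9% and 55%, 6.15% and 39.4%, and 0.22. Without the 10 most abundant member sequences they were 0.465% and 0.0998%, 92.4% and 86.4%, 10.4% and 13.6%, 5.60% and 10.3%, and 2.22.

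With 0 mismatches only, the listed shares were 0.649% and 0.131%, the C/D shares 97.3% and 87.9%, the shares of 18 to 24 nt 4.26% and 12.6%, the rat share found in mouse 6.91%, and the log2 ratio 2.31. On the plus strand only, the C/D shares were 96.4% and 87.8%, the shares of 18 to 24 nt 5.25% and 13.1%, the rat listed share 0.153%, the rat share found in mouse 6.74%, and the log2 ratio 2.26. With sequences of at least 10 reads, the listed shares were 0.595% and 0.177%, the C/D shares 99.0% and 94.9%, the mouse share of 18 to 24 nt 0.856%, the mouse share found in rat 0.974%, and the log2 ratio 1.74. With the month in the identifier taken as the blank count, the mouse listed share was 0.777%, the mouse share of 18 to 24 nt 7.23%, and the log2 ratio 1.99. Without members sharing 18 bases with tRNA or rRNA, the rat values were 0.154%, 87.5%, 13.4% and 6.65%, and the log2 ratio 2.27. Without SNORND104, chosen after seeing the data, the rat values were 0.154%, 87.4%, 13.5% and 6.71%, and the log2 ratio 2.27.

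The C/D share was higher in mouse than in rat under each of these except among 18 to 30 nt, where it was lower. The listed share was higher in mouse under all of them. With at least 20 reads, 25 names were past 4-fold higher in mouse, against 38. Relative to snoRNA and scaRNA reads in place of listed reads, the log2 ratios of SNORD97, SNORD88 and SNORD14 turned to -0.86, -1.15 and -1.70. Without SCARNA16, chosen after seeing the data, the log2 ratio of the scaRNA share turned to 1.57, against -1.62. The causes were not tested. No paired analysis was possible because there was 1 library per species, and leaving out a replicate was not possible either. Depth limits the rarer names: a count of 5 in mouse has an interval of 1.62 to 11.7.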
